A study of Gallus gallus with 8 samples.

Results

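The epidermal differentiation complex (EDC) is a cluster of genes whose products are laid down in the outer layers of the epidermis as keratinocytes, its main cells, mature and cornify. Many of these small proteins are cross-linked into the cornified envelope, the protein shell beneath the membrane of a dying keratinocyte. In birds the cluster also holds the genes of corneous beta-proteins, the hard building material of scales, claws and feathers. The 6 features EDPE-EDC, EDWM-EDC, EDYM1-EDC, EDGH-EDC, EDMPN1-EDC and EDbeta-EDC were taken by name from the deposited count tables. All 6 names were found among 24902 features, of which 35 have names ending in -EDC. The ending is read here as the gene cluster, since the tables do not spell it out. The 6 were grouped as genes without a numbered family, but the tables also hold EDYM2-EDC and EDMPN2-EDC, so this holds for EDYM1-EDC and EDMPN1-EDC only as far as these partners are set aside.

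The cells were primary chicken cells, with no genotype, agent or age of the birds in the labels. Keratinocytes grown as skin equivalents, in which they differentiate in a layered 3-dimensional culture, gave 3 libraries. There was 1 library of keratinocytes before confluence, there was 1 of confluent fibroblasts, and 3 came from keratinocytes grown to a confluent monolayer. In both replicated groups the title of replicate 1 holds the code 20, that of replicate 2 the code 34 and that of replicate 3 the code 56, and replicates 2 and 3 also bear the mark wo. The subconfluent library has the code 20. A number after the letter d is 7 in the title of skin equivalent 1, is missing from those of skin equivalents 2 and 3, and is 8 in those of all 3 monolayers. The labels explain neither these codes nor whether replicates are different birds or separate cultures. The p-values therefore set a difference between groups only against the spread among these libraries, and that spread may be technical. A library without a replicate adds nothing to that spread. Whether the skin equivalents held fibroblasts is not stated in the labels either.

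Each library held between 27329706 and 36728801 counts in genes. Levels are given as CPM, the usual count scaled to library size, with TMM factors over all 8 libraries. On that scale 3 counts, the floor used here, equal 0.0807 to 0.117 CPM. The labelled cell types were checked with 6 named keratins of the keratinocyte marker list, which had 15 symbols. These together reached 20850.5 to 29556 CPM in skin equivalents, 40500.1 CPM in subconfluent keratinocytes, 5.33 CPM in fibroblasts and 10169.9 to 13878 CPM in confluent monolayers. No name matched the 13 fibroblast, 5 melanocyte or 4 immune symbols, so those cell types were not measured by markers. In such bulk libraries fewer cells of a type and less RNA per cell cannot be told apart. Counting error only is covered by the floors and counting intervals below.

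Skin equivalents were first compared with confluent monolayers. The number after d is 8 in all 3 monolayers and is 7 or missing in skin equivalents. It cannot be told apart from the type of culture, nor can any fibroblasts in the skin equivalents. EDWM-EDC, EDYM1-EDC, EDGH-EDC, EDbeta-EDC and EDPE-EDC lay above all 3 monolayers in each skin equivalent, and EDMPN1-EDC did not. All 6 were tested, and 5 were called higher and 0 lower, against 25.9% of all 13230 tested features called higher and 23.6% called lower. The ranges of the groups did not overlap, with skin equivalents higher, for these 5 and for 32.4% of all tested features. The median log2 fold change of the 6 was 8.57 with EDYM1-EDC set at its lower bound, and that of all features was 0.08. EDYM1-EDC and EDGH-EDC, with at most 1 count in a monolayer, passed the low-count filter through skin equivalents, and only a rise could be called for them.

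**Figure D1:**
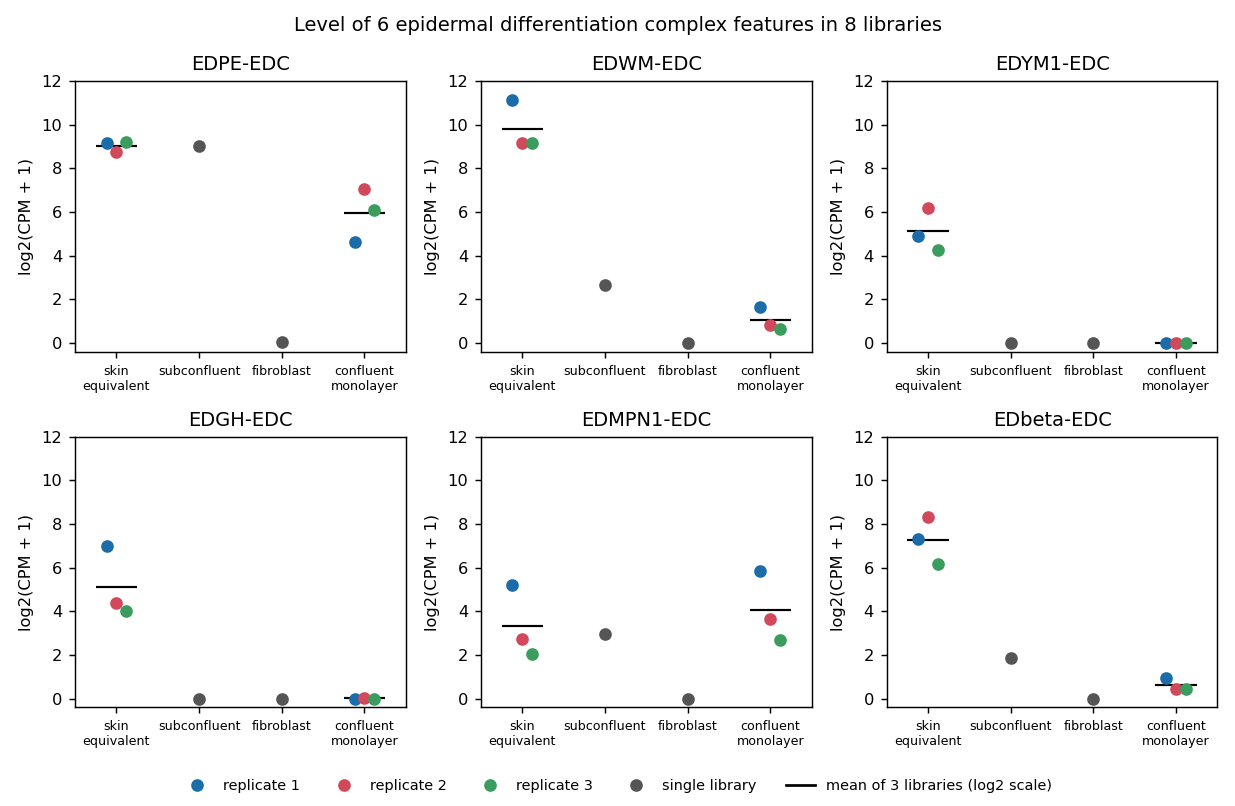
Level of each feature as log2(CPM + 1), in 1 panel per feature, with 1 point per library and a bar at the mean of 3 libraries. EDYM1-EDC and EDGH-EDC lie at or near 0 outside skin equivalents, the skin equivalents span 430.0 to 585 CPM for EDPE-EDC with the subconfluent library at 515 CPM inside that range, and EDMPN1-EDC overlaps between skin equivalents and monolayers.

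EDWM-EDC had the largest change that rested on more than a few monolayer counts. It had 2259, 574 and 567 CPM in skin equivalents 1, 2 and 3, against 2.19, 0.791 and 0.573 CPM in monolayers 1, 2 and 3. The groups lay far apart, and replicate 1 was the highest in both. The mean was 1133 ± 975 CPM in skin equivalents and 1.18 ± 0.876 CPM in monolayers (SD, n = 3 each), and the log2 fold change was 9.91 ± 1.00 (SE, adjusted p = 0.000393). It was 8.92 without skin equivalent 1 and 10.58 without monolayer 1.

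EDbeta-EDC had 156, 319.9 and 70.7 CPM in skin equivalents 1 to 3, against 0.943, 0.381 and 0.344 CPM in monolayers 1 to 3. Here replicate 2 was the highest skin equivalent, while replicate 1 was the highest monolayer. The log2 fold change was 8.37 ± 0.79 (adjusted p = 0.000316), or 7.69 without skin equivalent 2, and 8.97 among only the libraries with the mark wo.

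EDYM1-EDC had 29.0, 72.8 and 18.0 CPM in skin equivalents 1 to 3, from 758, 1862 and 469 counts, against 0 counts in each monolayer. In the monolayers 3 counts equal 0.0859 to 0.101 CPM. EDYM1-EDC was at least 436-fold higher in skin equivalents, with the floor taken per library, and at least 257-fold higher without skin equivalent 2 (adjusted p = 0.00098 with all libraries). Its numbered partner EDYM2-EDC was detected in monolayers, with 65.8 ± 51.9 CPM in skin equivalents and 1.98 ± 0.441 CPM in monolayers.

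EDGH-EDC had 126, 19.9 and 15.2 CPM in skin equivalents 1 to 3, from 3282, 510 and 397 counts, against a single count in monolayer 2 and 0 in monolayers 1 and 3. Skin equivalent 1 stood well above the other two. The ratio was 5320.2 with a 95% counting interval of 954 to 210186 (adjusted p = 0.000926). Without skin equivalent 1 the ratio was 1734, with an interval of 310.4 to 68564, and without monolayer 2 the level was at least 574-fold higher.

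EDPE-EDC changed least of the 5 that rose and had the highest mean level of the 6 in monolayers, although EDMPN1-EDC was higher in monolayer 1. It had 579, 430.0 and 585 CPM in skin equivalents 1 to 3, against 24.0, 133 and 68.1 CPM in monolayers 1 to 3. The skin equivalents were close to each other, with the highest 1.36 times the lowest, whereas the monolayers spread 5.56-fold. The log2 fold change was 2.83 ± 0.58 (adjusted p = 0.00613), or 3.52 without monolayer 2, and 2.24 among only the libraries with the mark wo.

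EDMPN1-EDC, whose name is a synonym of JAC1 in the RefSeq gene table, did not pass the test. It had 35.6, 5.59 and 3.07 CPM in skin equivalents 1 to 3, against 56.3, 11.7 and 5.38 CPM in monolayers 1 to 3. Replicate 1, with the title code 20, was the highest library in both groups by a wide margin, and the groups overlapped. The log2 fold change was -0.73 ± 1.10 (adjusted p = 0.608), and its 95% interval from -3.33 to 1.86 includes a change in either direction. Each skin equivalent was below the monolayer with the same title code. The value was -2.50 without skin equivalent 1 and 0.68 without monolayer 1. Its numbered partner EDMPN2-EDC was near the floor, at 0.397 ± 0.421 CPM in skin equivalents and 0.183 ± 0.196 CPM in monolayers. How reads shared by such partners were counted is not stated.

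**Figure D2:**
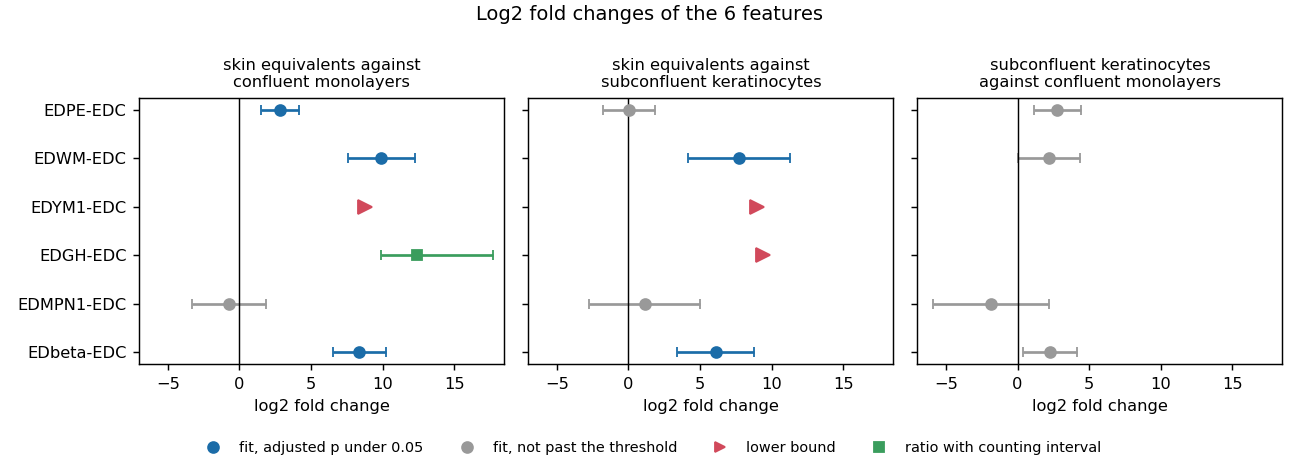
Log2 fold changes of the 6 features in 3 comparisons, with 95% intervals of the fit (circles), lower bounds against a floor of 3 counts (triangles) and a ratio with its counting interval (square). Only EDMPN1-EDC spans 0 in the comparison of skin equivalents with confluent monolayers, EDPE-EDC and EDMPN1-EDC span 0 against subconfluent keratinocytes, and no feature passed the threshold between subconfluent and confluent keratinocytes.

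The other -EDC features moved the same way in most cases. Of the 29 others, 21 were tested in this comparison, of which 19 were called higher and 1 lower, with a median log2 fold change of 8.29. Some of the 21 passed the low-count filter through skin equivalents, such as LOR2-EDC with 5 monolayer counts and EDQM3-EDC with 11. Only a rise could be called for those, so the count and the median lean towards rises. Loricrin is a major component of the cornified envelope, and LOR1-EDC, which bears its name, had the largest rise at 13.19 ± 0.44 on the log2 scale (adjusted p = 1.84e-05). LOR1-EDC likewise rested on only 10 counts in monolayers, at a mean of 0.101 CPM, close to the floor. The size of its rise is uncertain to that extent. CRNN-EDC, named after cornulin, was the one that fell, by 2.17 ± 0.58 on the log2 scale (adjusted p = 0.0176). CRNN-EDC rested on 12 counts in skin equivalents and 68 in monolayers, and no -EDC feature was called lower without skin equivalent 2 or without skin equivalent 3.

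The skin equivalents were next set against the subconfluent library, which has no replicate. The test borrowed its spread from the replicated groups. EDWM-EDC, EDYM1-EDC, EDGH-EDC and EDbeta-EDC were called higher and none of the 6 lower, against 9.15% of 15019 features called higher and 13.3% called lower. EDWM-EDC had 5.33 CPM and EDbeta-EDC had 2.66 CPM in the subconfluent library. Their log2 fold changes in skin equivalents were 7.73 ± 1.52 (adjusted p = 0.0133) and 6.09 ± 1.15 (adjusted p = 0.0115). Without skin equivalent 1 that of EDWM-EDC was 6.74, and without skin equivalent 2 that of EDbeta-EDC was 5.41. EDYM1-EDC and EDGH-EDC had 0 counts in the subconfluent library, so the direction of these 2 of the 4 calls was fixed by the low-count filter. They were at least 495-fold (adjusted p = 0.0109) and 664-fold (adjusted p = 0.0149) higher in skin equivalents, or 291-fold without skin equivalent 2 and 218-fold without skin equivalent 1. The call of EDGH-EDC was lost with limma-voom (adjusted p = 0.0768). Of the other -EDC features, 14 of 25 tested were called higher, and CRNN-EDC was called lower. Some of the 25, such as LOR1-EDC with 9 counts in the subconfluent library, again passed the filter through skin equivalents.

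EDPE-EDC did not follow these 4. The subconfluent library held 19144 of its counts, or 515 CPM, which lies within the range of the skin equivalents. The log2 fold change between skin equivalents and that library was 0.04 ± 0.77 (adjusted p = 0.976), with an interval from -1.75 to 1.84, so a difference of either sign below about that size was not resolved. EDMPN1-EDC had 6.73 CPM in the subconfluent library, also within the range of the skin equivalents (log2 fold change 1.13 ± 1.66, adjusted p = 0.646, or -0.64 without skin equivalent 1).

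Subconfluent keratinocytes were also set against confluent monolayers. EDPE-EDC, EDWM-EDC and EDbeta-EDC were higher in the subconfluent library than in each of the 3 monolayers, a pattern that 37.8% of all tested features shared. None of the 6 passed the edgeR test, in which 0.606% of features were called higher and 0.726% lower, although 3 of the 6 had an unadjusted p under 0.05, as had 3520 of the 15019 features. EDYM1-EDC and EDGH-EDC, at or under the floor in both groups, could not be called in either direction. DESeq2 called 1 of the 6, with 680 of the 15019 features called higher and 1230 lower. The alternative limma-voom called 0 of the 6, with 155 features called higher and 208 lower. EDPE-EDC had 515 CPM in the subconfluent library and 75.1 ± 55.0 CPM in monolayers, which is 2.78 ± 0.70 on the log2 scale (adjusted p = 0.0823). It was called with DESeq2 (2.67, adjusted p = 0.00882) and without monolayer 1 (2.24, adjusted p = 0.0457). Without monolayer 2 its log2 fold change was 3.39 (adjusted p = 0.116).

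EDWM-EDC and EDbeta-EDC, with few monolayer counts, had the same order of groups. EDWM-EDC, with 198 counts in the subconfluent library, differed by 2.18 ± 0.92 on the log2 scale (adjusted p = 0.208), or by 2.85 without monolayer 1. EDbeta-EDC, with 99 counts there, differed by 2.27 ± 0.81 on the log2 scale (adjusted p = 0.157). EDMPN1-EDC, at 6.73 CPM, lay between monolayers 2 and 3 (log2 fold change -1.86 ± 1.74, adjusted p = 0.543, or -0.46 without monolayer 1). Among the libraries with the code 20, EDPE-EDC had 515 CPM before confluence against 24.0 CPM in monolayer 1, and EDMPN1-EDC had 6.73 CPM before confluence against 56.3 CPM in monolayer 1. EDYM1-EDC and EDGH-EDC were at or under the floor in both groups and gave no fold change. Of the other -EDC features, 1 of 25 tested was called higher, namely EDCH3-EDC, with 8.07 CPM in the subconfluent library and 0.334 ± 0.177 CPM in monolayers (log2 fold change 4.60 ± 0.67, adjusted p = 0.039). DESeq2 called 5 of them higher, and none was called without skin equivalent 2 or 3 or without monolayer 2 or 3.

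Fibroblasts, the cells of the dermis, held 1 count of EDPE-EDC and 0 counts of the other 5 features. A floor of 3 counts corresponds to 0.116 CPM in that library. With at most 1 count there, the 6 features passed the low-count filter through keratinocyte libraries, and a rise could not be called for any of them. Against confluent monolayers, EDPE-EDC and EDMPN1-EDC were called lower, 2 of the 6 tested, against 23.0% of 15019 features. EDWM-EDC and EDbeta-EDC were also below all 3 monolayers, which makes 4 of 6, against 44.2% of all features. EDPE-EDC was 2002-fold lower, with a 95% counting interval of 359 to 79079 (adjusted p = 0.00238). Its fitted log2 fold change was -10.78, or -10.08 without monolayer 2. EDMPN1-EDC was at least 211-fold lower (adjusted p = 0.0387), or at least 73.9-fold lower without monolayer 1, but this call was lost without a low-count filter (adjusted p = 0.0766) and with limma-voom (adjusted p = 0.152). EDWM-EDC and EDbeta-EDC were at least 10.2-fold and 4.79-fold lower, without passing the test (adjusted p = 0.0503 and 0.0742), or at least 5.88-fold and 3.13-fold lower without monolayer 1. Both were called with DESeq2 (adjusted p = 0.00393 and 0.0139). EDWM-EDC was also called without skin equivalent 1 (adjusted p = 0.0225) or monolayer 3 (adjusted p = 0.0494), and EDbeta-EDC without skin equivalent 2 (adjusted p = 0.0396) or skin equivalent 3 (adjusted p = 0.0381). EDYM1-EDC and EDGH-EDC were at or under the floor in both groups, so a fall could not be seen. In the fibroblast library 2.53% of fragments were ambiguous and 13.7% were outside any feature, against 0.485% to 0.571% and 19.4% to 22.2% in the monolayers, and the part of this in the fibroblast values was not tested.

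The order of the 4 groups thus differed between features. EDWM-EDC and EDbeta-EDC ran from skin equivalents through subconfluent keratinocytes and confluent monolayers to fibroblasts. For both, neither the step from subconfluent to confluent libraries nor that from monolayers to fibroblasts passed the edgeR test in the main fit. Some other edgeR settings called the step to fibroblasts. Among them were scaling by total count for EDWM-EDC and the fit of fibroblasts and monolayers alone for both. For EDPE-EDC the skin equivalents and the subconfluent library were within 1 range, the monolayers came next and the fibroblast library was at 1 count. EDYM1-EDC and EDGH-EDC were above the floor in skin equivalents only. For EDMPN1-EDC the confluent monolayers (24.5 ± 27.8 CPM), skin equivalents (14.7 ± 18.1 CPM) and the subconfluent library (6.73 CPM) overlapped. No order among these keratinocyte cultures passed the test without a block. The fibroblast library, at 0 counts, was called lower than the monolayers in the main fit, but not under every alternative.

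Together the 6 features took up 1955 ± 1067 CPM in skin equivalents, 529.7 CPM in subconfluent keratinocytes and 101 ± 39.1 CPM in monolayers. EDPE-EDC supplied 18.2% to 46.5% of their counts in skin equivalents, 97.2% in the subconfluent library and 28.7% to 91.5% in monolayers. These shares are of reads and are not corrected for gene length. Monolayer 1 stood apart, as EDMPN1-EDC held more of its counts than EDPE-EDC, 1673 against 712.

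Apart from EDPE-EDC, these features differed between the skin equivalents by more than most tested features, as did the other -EDC features as a set. The highest skin equivalent had a median of 4.28 times the CPM of the lowest over the 6 features, 3.71 times over 20 other -EDC features and 1.47 times over 12551 tested features, all with more than 3 counts in each skin equivalent. EDWM-EDC, EDGH-EDC and EDMPN1-EDC were highest in skin equivalent 1, which held 66.4%, 78.1% and 80.4% of their summed CPM. EDYM1-EDC and EDbeta-EDC were highest in skin equivalent 2, which held 60.7% and 58.5%. EDPE-EDC was spread nearly evenly, with 36.3%, 27.0% and 36.7% in skin equivalents 1 to 3.

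**Figure D3:**
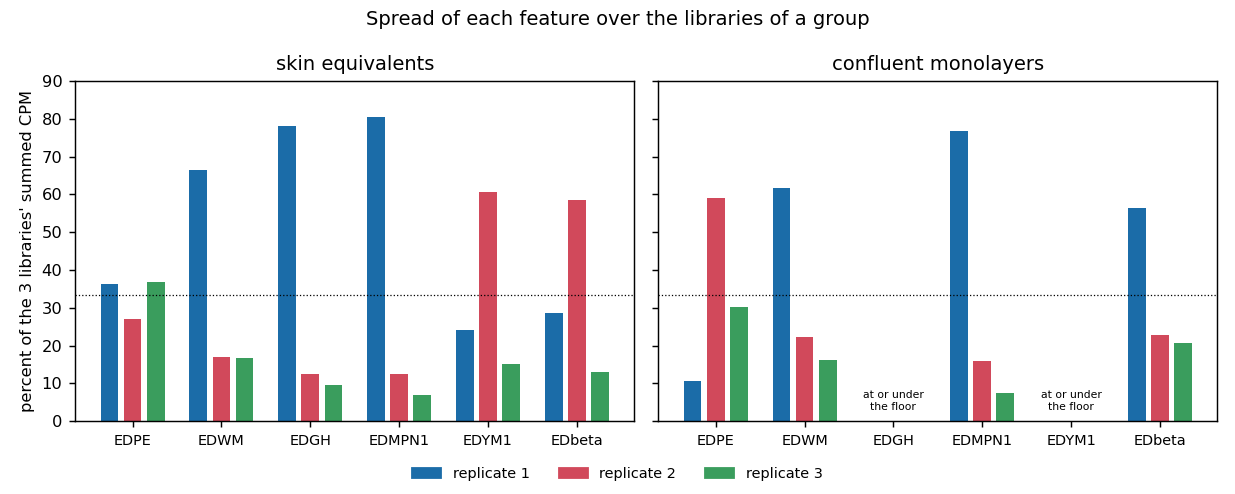
Share of each feature's summed CPM held by each of the 3 libraries of a group, in percent, for skin equivalents (left) and confluent monolayers (right), with a dotted line at an even split. Replicate 1 holds most of EDWM-EDC and EDMPN1-EDC in both groups, whereas replicate 2 holds 60.7% of EDYM1-EDC and 58.5% of EDbeta-EDC in skin equivalents.

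The pair that peaked in skin equivalent 2 had 5.37, 4.40 and 3.93 counts of EDbeta-EDC per count of EDYM1-EDC in skin equivalents 1 to 3. Of the features that peaked in skin equivalent 1, EDWM-EDC had 18.0, 28.8 and 37.2 counts per count of EDGH-EDC. EDMPN1-EDC had 0.0157, 0.00974 and 0.00541 per count of EDWM-EDC. EDWM-EDC and EDbeta-EDC peaked in different skin equivalents, with 14.5, 1.79 and 8.01 counts of EDWM-EDC per count of EDbeta-EDC. That ratio was 2.00 in the subconfluent library and 1.67 to 2.32 in monolayers. Pairs picked for a shared peak vary less in their ratio by that choice, so these ratios only describe the peaks. The genes of the first pair overlap in the annotation described below, and how their reads were assigned is not known. The first pair gave no ratio outside skin equivalents, where EDYM1-EDC had 0 counts. EDbeta-EDC had 28, 13 and 12 counts in monolayers 1 to 3 and 99 in the subconfluent library. Of the 20 other -EDC features, 17 were highest in skin equivalent 1, 2 in skin equivalent 2 and 1 in skin equivalent 3, against 37.8%, 30.7% and 31.6% of all tested features. In monolayers, replicate 1 was the highest for EDWM-EDC, EDMPN1-EDC and EDbeta-EDC, 3 of the 4 members with more than 3 counts in each, and for 12 of 14 other -EDC features, against 42.3% of all tested features. Replicate 1 was thus the highest of its group for most -EDC features in both cultures. Skin equivalent 1 is also the one with a d number and without the mark wo in its title, and replicate, d number and mark cannot be told apart there. The 2 that peaked in skin equivalent 2 were LOC107055127-EDC and EDMTF4-EDC, named here after their values were seen.

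Neighbourhood on the chromosome was looked up in the RefSeq gene table of assembly GRCg7b, in which 5 of the 6 names had a match and EDGH-EDC had none. The authors' build is not stated, so only names and neighbours were taken from it. EDYM1 and EDBETA are neighbours there whose spans overlap, and both spans also overlap that of EDMTF4. Thus 3 of the 4 -EDC features that were highest in skin equivalent 2 share 1 stretch of the cluster in that annotation. How reads of overlapping genes were assigned here is not known, so the values of EDYM1-EDC, EDbeta-EDC and EDMTF4-EDC are uncertain to that extent. EDMTF4-EDC was the lowest of these, at 2.87, 4.45 and 1.61 CPM in skin equivalents 1 to 3. Whether reads of its neighbours make up its peak was not tested. EDMPN1 and EDWM are also near neighbours, with EDCH5 between them, yet EDMPN1-EDC did not pass the test between skin equivalents and monolayers while EDWM-EDC did. EDPE stands between genes that the table gives only by number, 1 of which overlaps it, and next to no other of the 6.

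**Figure D4:**
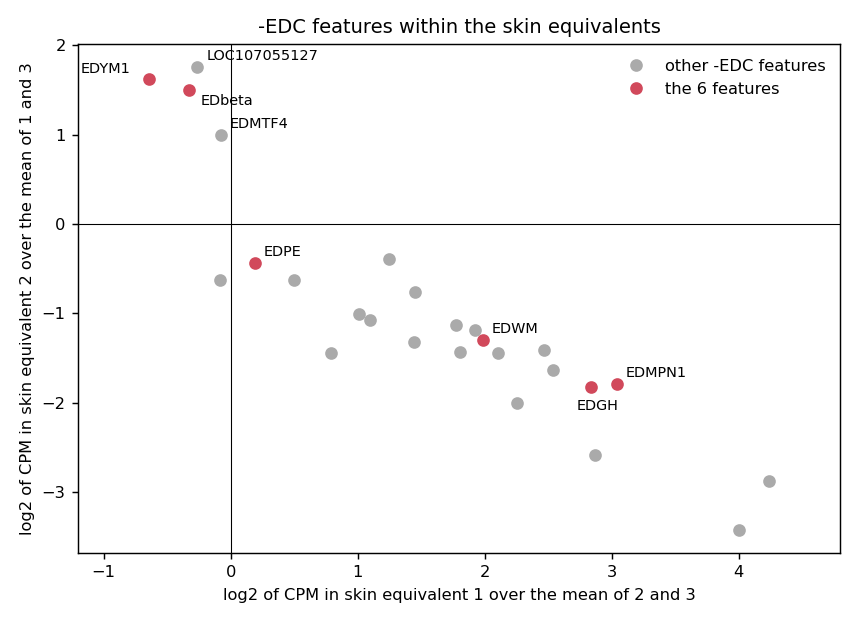
Log2 ratio of CPM in skin equivalent 2 over the mean of skin equivalents 1 and 3, against the log2 ratio of skin equivalent 1 over the mean of 2 and 3, for the 6 features and 20 other -EDC features with more than 3 counts in each. EDYM1-EDC, EDbeta-EDC, LOC107055127-EDC and EDMTF4-EDC lie above 0 on the vertical axis, and the remaining 22 lie below it.

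Finally, the named features with the most similar profile over the 8 libraries were sought, by the root mean square difference of centred log2(CPM + 1) values. Libraries of a group share their culture type, so these are not 8 independent points. The candidates were 13643 features that reached 1 CPM in a library. Only 143 of all 24902 features have a name, so a nearest named feature could come from these alone. Which kinds of gene came first therefore depends on which were named. By the same measure the features' own spread about their mean was 4.29 for EDWM-EDC, 3.24 for EDbeta-EDC and 2.97 for EDPE-EDC. It was 2.61 for EDGH-EDC, 2.53 for EDYM1-EDC and 1.71 for EDMPN1-EDC, and each distance is to be read beside it. EDCH3-EDC and EDCH4-EDC were closest to EDWM-EDC, at 0.46 and 0.47, with no unnamed feature nearer. CBP11-C, a corneous beta-protein feature, was closest to EDbeta-EDC, at 0.42, again with no unnamed feature nearer, and CBP5-C followed at 0.75, with 6 unnamed features nearer. For EDYM1-EDC the nearest named features were CBP9-C at 0.33 and LOC107055127-EDC at 0.36, with 2 unnamed features nearer than each. Like EDYM1-EDC and EDbeta-EDC, the 14 corneous beta-protein features ending in -C with more than 3 counts in each skin equivalent were all highest in skin equivalent 2. Of all tested features 30.7% were highest there. This set of 14 was looked at after these values were seen, and its peak rests on 1 library.

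For EDGH-EDC they were EDP3-EDC at 0.46 and EDQM3-EDC at 0.69, with 1 and 6 unnamed features nearer. For EDPE-EDC they were 2 keratins, Krt14L1 at 1.04 and Krt9L1 at 1.08, with 4 and 9 unnamed features nearer. EDMPN1-EDC had no near named profile: Krt20 at 1.33 and CBP17-F at 1.37 came first, and 378 unnamed features were nearer than Krt20. With a pseudocount of 0.5 CPM the same pairs came first for each feature except EDbeta-EDC, where 1 of the 2 was kept.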

How the data were processed

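For each library the authors deposited 1 table of raw counts, whole numbers that had not been normalised. Tools named, with no role, per the submitters' processing notes are DESeq2 1.22.2, RSEM, bcl2fastq 2.19.1.403 and STAR 2.6.1a. The sources used here state no genome build, annotation or strand setting, so overlapping and near-identical genes are uncertain. The 4 rows of fragments given to no gene stayed out: 64.5% to 71.3% of fragments were in genes. The 6 skin equivalent and confluent monolayer libraries formed 1 fit and all 8 another, used for the other comparisons, with the quasi-likelihood test of edgeR 4.0.16 (R 4.3.3; robust, TMM, default expression filter) and Benjamini-Hochberg adjustment over all tested features at 0.05. Comparisons that use the same monolayers or skin equivalents are not independent. DESeq2 1.42.0 and limma-voom (limma 3.58.1) were alternatives, beside other scalings and filters, a replicate block and single libraries left out. Standard errors are the log2 fold change over the root of the F statistic. The members and lists were chosen with earlier results of these data known. Named features are the 6 members, the 2 nearest named profiles of each, the largest changes among other -EDC features, and those said to be named after their values were seen. EDYM2-EDC and EDMPN2-EDC are also named as numbered partners, and LOR2-EDC as an example of few monolayer counts.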

Additional observations from a re-analysis of the deposited data

How the results depend on the processing

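Between skin equivalents and confluent monolayers 5 of the 6 features were called higher under every alternative run. The log2 fold change of EDMPN1-EDC ranged from -2.50 to 0.68 over single libraries left out. Over all features, same-numbered libraries of both groups did not deviate together (correlations of -0.04, -0.11 and 0.16 over 13230 features, and 1 of 3 skin equivalents was closest to its own number). With the replicate block 3097 features were called higher and 2894 lower, and 1 of the 6 was called lower, namely EDMPN1-EDC (log2 fold change -0.84, adjusted p = 0.0216). Scaling by total count gave 2517 rises and 3918 falls in place of 3427 and 3122, with a median over all features of -0.18 on the log2 scale in place of 0.08.

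Against subconfluent keratinocytes, 1374 features rose and 2000 fell in skin equivalents. The rises numbered 2282 with DESeq2, 893 with a replicate block by title code and 787 to 2071 over single libraries left out, and the falls 1247 to 2623. EDPE-EDC, at a log2 fold change of 0.04, turned to -0.08 with total counts and -0.41 with that block, and ranged from -0.03 to 0.18 over libraries left out. EDMPN1-EDC ranged from -0.64 to 1.61, and was called higher with that block (2.28, adjusted p = 0.0184).

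Between subconfluent and confluent keratinocytes 91 features rose and 109 fell. The rises numbered 39 with RLE scaling, 34 with total counts, 680 with DESeq2, 155 with limma-voom, 0 with the block and 0 to 270 over libraries left out. The falls numbered 184 with the stricter filter of 50 counts in 3 libraries, 1230 with DESeq2, 208 with limma-voom, 0 with the block and 0 to 413 over libraries left out. Of the 6 features, 1 was called higher with DESeq2 and 0 to 1 over libraries left out. In fibroblasts 2 of the 6 were called lower, against 1 without a filter, 4 with DESeq2, 1 with limma-voom and 2 to 3 over libraries left out. The fit of fibroblasts and monolayers alone tested only 4 of them, which passed its filter through monolayers, and called all 4. Over all features 3458 of 15019 were called lower, against 3698 with DESeq2, 3372 with limma-voom and 2335 to 4208 over libraries left out. Without a filter 3252 of 19795 were called lower, and 3076 of 14431 in the fit of fibroblasts and monolayers alone. Where no cause is named, it was not tested. Outside skin equivalents EDYM1-EDC and EDGH-EDC lay at or under the floor of 3 counts, so how low they were there could not be measured at this depth.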
